A study of Mus musculus with 2 samples.

Results

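Fibroblast growth factors (FGFs), their receptors and the inhibitors that restrain the signal were described here in the uterus of mice with normal or repressed VEGF, together with Hand2. The genes were taken by symbol: every listed Fgf, Fgfr, Spry, Spred and Dusp gene whose symbol goes on with a digit, and Hand2. These were 43 of the 14678 genes in the table. All mice were adult female littermates of 1 genotype, VEGFtetO/tetO/beta-AKtg/wt. Tet operators had been inserted into the VEGF promoter on both alleles, and a beta-actin promoter drove the tetR-Krab repressor in all tissues, so that no organ was targeted by itself. Dox+ mice ate chow with doxycycline, which releases the repressor and leaves VEGF normal, and Dox- mice had been moved to regular chow after weaning, which represses VEGF. Doxycycline intake and VEGF level therefore changed together and cannot be told apart. The females were mated, uteri were taken at gestation day 2.5, and RNA of 3 uteri per condition was pooled into 1 library each. A difference between these 2 libraries has no replicate check, and no test between the conditions was possible.

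FGFs bind receptor tyrosine kinases of the FGFR family with heparan sulfate as a cofactor, and the receptors signal through RAS, RAF and MEK to the kinase ERK. ERK signaling switches on its own brakes: Sprouty and Spred proteins, which block the pathway near RAS and RAF, and DUSP6, a phosphatase that removes the activating phosphates from ERK in the cytoplasm. In the uterus before implantation, HAND2 is a progesterone-induced transcription factor of the stroma that is known to hold down stromal FGF ligands such as FGF1, FGF9 and FGF18, whose signal drives the epithelium through FGFR and ERK.

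Hand2 was 6.73-fold lower in Dox-. Of the feedback genes, Dusp6 was 4.59-fold higher and Spry1 and Spry2 were 1.71-fold and 1.54-fold higher. The less abundant Spred2 was 2.88-fold higher, with 16 copies in Dox+ and 45 in Dox-. Spred1 had more copies in Dox- and Spry3, Spry4 and Spred3 had fewer, each within counting error. Fgf1 was 3.42-fold lower, the receptor sum was nearly level, and most other phosphatases differed by less than 1.5-fold. Of the 43 genes, 12 had at least 200 copies (sequence tags of a gene) over both libraries, the minimum at which a fold change of 1.5 or more was counted as a difference. Of these 12, 3 were higher (Dusp6, Spry1 and Spry2), 2 were lower (Hand2 and Dusp14) and 7 were neither. The minimum was on the sum, so copies in the library where a gene was higher helped it pass. Dusp6, Spry1 and Dusp14 had only 48, 76 and 75 copies in the other library. Over the 6547 genes of the table with at least 200 copies, 15.2% were higher and 14.7% lower by the same rule, so the members' counts were near the background. The median log2 ratio of Dox- over Dox+ was 0.05 for the 12 genes and 0.03 for all genes compared.

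**Figure D1:**
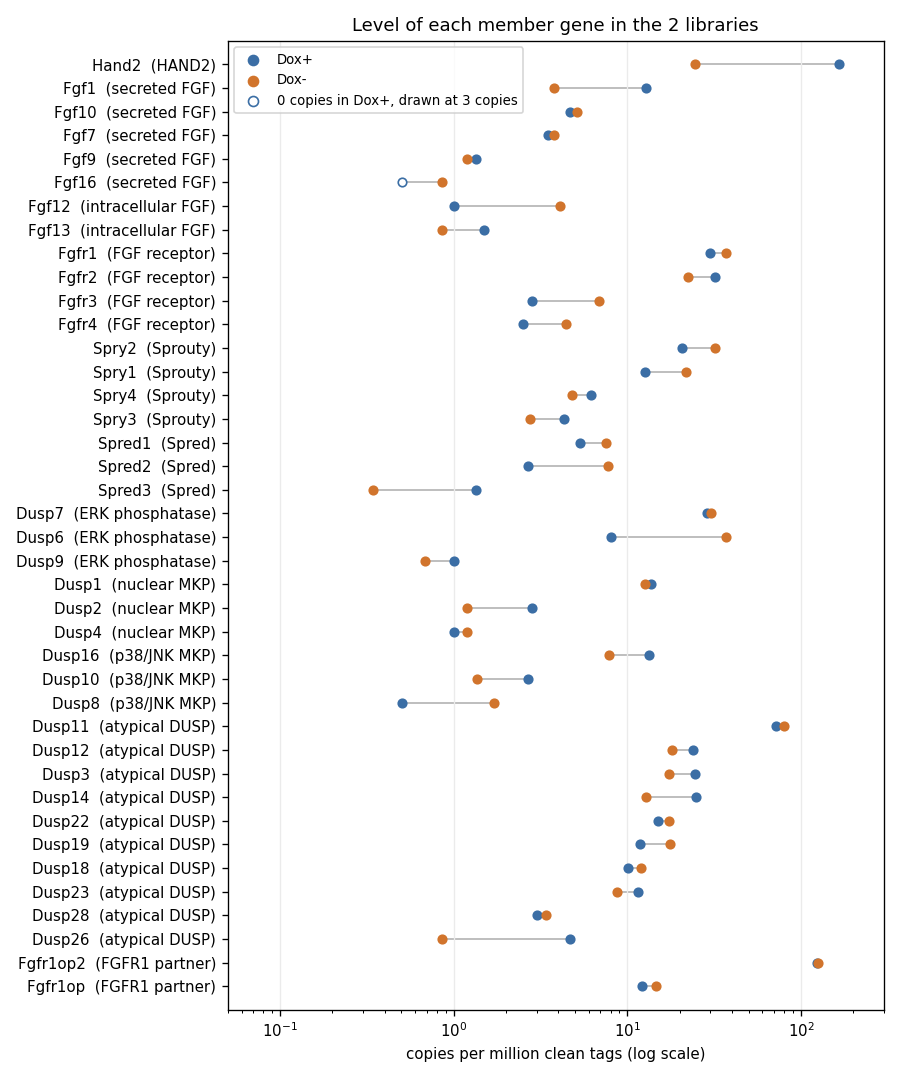
TPM (copies per 1000000 clean tags, log axis) of the 40 member genes with more than 3 copies in a library, grouped by role, with a blue point for the Dox+ library and an orange point for the Dox- library. Hand2 lies far to the left in Dox-, from 165 to 24.5 TPM, and Dusp6 far to the right, from 8.02 to 36.8 TPM; Fgf16 had no copy in Dox+ and is drawn there at 3 copies as an open circle.

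The start regions of Hand2 and of the 3 higher feedback genes are printed below because the account turns on these 4 genes. Each window runs from 250 bases before to 50 bases after the RefSeq start in build GRCm38.p6, 5′ to 3′ on the gene's own strand, and capitals mark matches to the motifs named after it. The windows are chr8:57320733-57321032 on the plus strand for Hand2, chr10:99262981-99263280 on the plus strand for Dusp6, chr3:37639697-37639996 on the plus strand for Spry1 and chr14:105896770-105897069 on the minus strand for Spry2.
Hand2: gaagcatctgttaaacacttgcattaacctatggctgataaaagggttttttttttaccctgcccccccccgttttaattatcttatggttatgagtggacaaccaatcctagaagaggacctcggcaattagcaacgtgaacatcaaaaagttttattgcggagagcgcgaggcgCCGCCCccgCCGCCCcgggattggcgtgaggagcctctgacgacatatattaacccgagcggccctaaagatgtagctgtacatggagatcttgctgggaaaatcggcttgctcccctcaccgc
Dusp6: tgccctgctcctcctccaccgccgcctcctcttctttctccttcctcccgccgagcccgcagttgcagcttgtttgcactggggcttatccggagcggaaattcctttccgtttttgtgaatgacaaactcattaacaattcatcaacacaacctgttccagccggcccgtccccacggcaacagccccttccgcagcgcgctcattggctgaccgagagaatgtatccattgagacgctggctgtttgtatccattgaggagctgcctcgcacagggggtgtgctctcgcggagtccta
Spry1: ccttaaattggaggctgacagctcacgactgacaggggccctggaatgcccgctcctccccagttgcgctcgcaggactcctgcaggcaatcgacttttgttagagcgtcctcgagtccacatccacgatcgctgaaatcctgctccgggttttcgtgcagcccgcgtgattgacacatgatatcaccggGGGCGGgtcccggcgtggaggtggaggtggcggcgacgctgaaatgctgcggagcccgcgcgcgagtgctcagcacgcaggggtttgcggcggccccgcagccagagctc
Spry2: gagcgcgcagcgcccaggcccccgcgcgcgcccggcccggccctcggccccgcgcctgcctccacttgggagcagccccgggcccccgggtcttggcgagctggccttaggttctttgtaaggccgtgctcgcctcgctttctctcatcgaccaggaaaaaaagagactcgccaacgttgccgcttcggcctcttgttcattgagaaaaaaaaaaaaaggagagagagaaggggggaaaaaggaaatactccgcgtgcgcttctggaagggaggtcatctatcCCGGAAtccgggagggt
Both strands were searched for CCGGAA, the core bound by ETS factors that ERK phosphorylates, TGANTCA for AP-1, GGGCGG for the GC box and TGACGTCA for the CRE. The progesterone response element was searched by a palindromic consensus of its own. Spry2 held 1 ETS core 33 bases after the start, and 14.9% of the 32851 RefSeq windows of this length held one. GC boxes lay at -74 and -65 on the reverse strand of Hand2 and at -60 in Spry1, against 35.7% of all windows with at least 1. The Dusp6 window held no match, and none of the 4 held an AP-1 site (7.81% of all windows), a CRE (1.79%) or a progesterone response element (0.475%). No match shared bases with another. GC content was 50.3% for Hand2, 57.3% for Dusp6, 64.3% for Spry1 and 62.7% for Spry2, with a median of 52.7% over all windows.

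Hand2 had 985 copies in Dox+ and 143 in Dox-. Its level was 165 TPM in Dox+ and 24.5 TPM in Dox-. It was 6.73-fold lower (95% interval 5.64 to 8.07) and ranked 32nd among the lower genes of the 6547 compared. Bracketed intervals are exact ones for how a gene's copies divide between the libraries, and they leave out the spread between mice. The gene lies on chromosome 8 at 59799780 to 59803314 of NCBIM37, plus strand, and no other annotated gene overlaps it.

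Genes of progesterone and hedgehog signaling, which act beside HAND2, were followed in a list of 15. Of these, 9 had at least 200 copies, of which 4 were lower, 1 was higher and 4 were neither, against 14.7% lower and 15.2% higher over all genes, and the median log2 ratio was -0.58. Ihh, the hedgehog ligand that the epithelium makes in response to progesterone, had 646 and 37 copies, 17-fold lower (12.2 to 24.4). Hoxa11, a stromal homeobox factor, had 2573 copies in Dox+ and 785 in Dox-, 3.2-fold lower (2.95 to 3.47). Gli1, a transcriptional readout of hedgehog signaling, had 382 and 127 copies, 2.94-fold lower (2.4 to 3.62). Pgr, the progesterone receptor itself, went the other way, with 687 copies in Dox+ and 1251 in Dox-, 1.87-fold higher (1.7 to 2.05). Among the less abundant genes of the list, Areg, an epithelial EGF-family ligand induced by progesterone, had 31 copies in Dox+ and no copy in the Dox- library, 10.1-fold lower against a floor of 3 copies and at least 7.73-fold lower by the exact interval.

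Vegfa, the repressed gene, had 247 copies in Dox+ and 125 in Dox-, 1.93-fold lower (1.55 to 2.41), in the direction of the labels. The samples were whole uteri, in which fewer cells of a type and less RNA per cell cannot be told apart. Of 58 cell type markers, 57 were in the table, which holds only genes with a tag. Markers with at least 200 copies were counted as above, against 15.2% higher and 14.7% lower over all genes. Stroma markers, the compartment of Hand2, were lower for 4 and higher for 2 of 12 genes, while their summed level was 1.19-fold higher in Dox-. That direction rested on the collagens Col1a1 and Col1a2, without which the sum was 1.2-fold lower (1.18 to 1.21). The 4 lower stroma markers were Hoxa10, Hoxa11, Postn and Vim. Hoxa10 and Hoxa11 are also among the lower genes of the progesterone and hedgehog list, so the lists overlap. Epithelial markers were higher for 5 and lower for 2 of 11 genes, and their sum went from 1290 to 1860 TPM. In this sum, Cldn7 went from 877 to 2263 copies and Elf3 from 185 to 1083, while Cldn3 went from 1482 to 494. Krt8, Krt18, Krt19 and Cdh1 were 1.14-fold to 1.35-fold higher and did not count. Myometrial markers were lower for 4 of 9 genes and their sum was 1.41-fold lower, and endothelial markers were lower for 3 of 5 and 1.43-fold lower in sum. None of 4 leukocyte markers passed 1.5-fold, and their sum was 1.16-fold higher. The part of these shifts in the differences of the FGF genes was not tested.

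Ligands were scarce in both libraries. None of the 7 secreted FGFs reached 200 copies, and their sum was 134 copies in Dox+ and 92 in Dox-, 1.42-fold lower (1.08 to 1.88). Fgf1 carried this direction, and without it the sum was 57 and 70 copies, 1.26-fold higher (0.874 to 1.82). For members under 200 copies but with more than 3 in a library, a gene was counted only where the fold change was at least 1.5 and its interval excluded 1. By this rule, 3 of 28 such members were higher and 3 lower, against 17.5% and 17.1% of the 7180 genes of the same kind in the table, so neither count was above the background.

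Fgf1, the broad-range ligand that binds all FGF receptors, had 77 copies in Dox+ and 22 in Dox-. It was 3.42-fold lower (2.1 to 5.77) and the only secreted ligand past that rule. The stromal ligands Fgf10 and Fgf7, which signal to the epithelial splice form of FGFR2, were nearly level. Fgf10 had 28 and 30 copies, 1.1-fold higher (0.634 to 1.91), and Fgf7 had 21 and 22 copies, 1.07-fold higher (0.563 to 2.05). Fgf9, another secreted ligand, had 8 and 7 copies. Fgf16 had none in Dox+ and 5 in Dox-, with an interval that included 1. Fgf18 and the endocrine factor Fgf21 had none in Dox+ and 3 each in Dox-, where the depth allowed no fold change. A count of 0 allowed a level of up to 0.501 TPM in Dox+. Fgf12 and Fgf13 are FGF homologous factors that stay inside the cell and modulate sodium channels. Fgf12 had 6 copies in Dox+ and 24 in Dox-, 4.1-fold higher (1.63 to 12.3), and Fgf13 had 9 and 5.

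The receptors were level in sum and unequal in makeup. The 4 receptor genes together had 402 copies in Dox+ and 413 in Dox-, 1.05-fold higher (0.915 to 1.21). Fgfr1, a receptor typical of mesenchymal cells, had 179 and 217 copies, 1.24-fold higher (1.01 to 1.52). Fgfr2, whose epithelial form receives stromal FGFs, had 191 and 130 copies, 1.43-fold lower (1.14 to 1.81), just under the 1.5-fold limit. These 2 genes leaned in opposite directions, with intervals that excluded 1 and fold changes too small to count. Fgfr3 had 17 and 40 copies, 2.41-fold higher (1.34 to 4.53), and Fgfr4 had 15 and 26, 1.78-fold higher (0.906 to 3.61). The share of Fgfr2 among all receptor copies was 47.5% in Dox+ (Wilson 95% interval 42.7 to 52.4) and 31.5% in Dox- (27.2 to 36.1). That of Fgfr3 was 4.23% (2.66 to 6.67) and 9.69% (7.19 to 12.9), and that of Fgfr1 was 44.5% (39.7 to 49.4) and 52.5% (47.7 to 57.3). Tags were not corrected for length, so these shares are compared between the libraries and not between the genes. Fgfr1op and Fgfr1op2, named after fusions with FGFR1 and not receptors, had 73 and 85 copies and 737 and 735 copies.

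**Figure D2:**
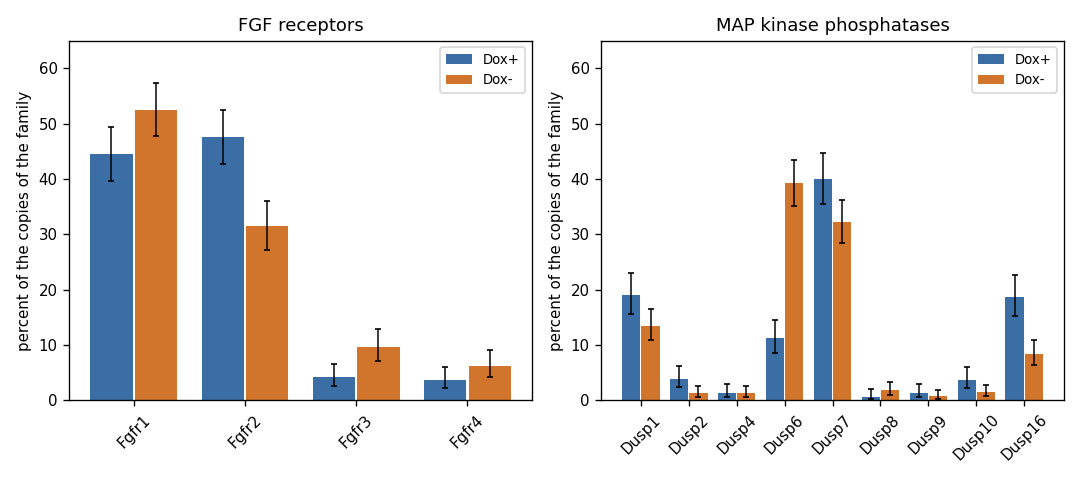
Share of each gene (percent of the family's copies) among the 4 FGF receptors, left, and the 9 MAP kinase phosphatases, right, in the Dox+ library (blue) and the Dox- library (orange), with Wilson 95% intervals for counting error. Fgfr2 goes from 47.5% to 31.5% of receptor copies, and Dusp6 from 11.2% to 39.2% of phosphatase copies.

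The Sprouty genes split by abundance. Spry2, an inhibitor of receptor tyrosine kinase signaling, had 124 copies in Dox+ and 186 in Dox-, 1.54-fold higher (1.22 to 1.94). Spry1 had 76 and 127 copies, 1.71-fold higher (1.28 to 2.31). The less abundant Spry4 and Spry3 leaned the other way, with 37 and 28 copies (1.29-fold lower, 0.768 to 2.19) and 26 and 16 copies (1.59-fold lower, 0.82 to 3.17), and both intervals included 1. Summed over the 4 genes, copies were 263 and 357, 1.39-fold higher (1.18 to 1.64). Spred2, a membrane-bound relative that recruits the RAS inhibitor neurofibromin, had 16 and 45 copies, 2.88-fold higher (1.6 to 5.46). Spred1 had 32 and 44 copies, 1.41-fold higher (0.873 to 2.29), and Spred3 had 8 and 2 copies. The 7 Sprouty and Spred genes together were 1.44-fold higher (1.24 to 1.67), with 319 and 448 copies. Both higher Sprouty genes were near a limit of the rule: Spry1 had 203 combined copies, with Dusp22 next below at 192, and Spry2 was 1.54-fold higher, with Fgfr2 next at 1.43-fold lower. Spry1 lies on chromosome 3 at 37538869 to 37543520 (plus strand) and Spry2 on chromosome 14 at 106291166 to 106296036 (minus strand) of NCBIM37.

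Dusp6 gave the largest difference among the higher members. It had 48 copies in Dox+ and 215 in Dox-, which is 8.02 and 36.8 TPM, and was 4.59-fold higher (3.34 to 6.41). It ranked 50th among the higher genes of the table. The gene lies on chromosome 10 at 98725865 to 98730122 of NCBIM37, plus strand, without an overlapping annotated gene. Dusp7, the closest cytoplasmic relative and also directed at ERK, was level with 172 and 177 copies, 1.05-fold higher (0.85 to 1.31), and Dusp9, the third of this class, had 6 and 4. The nuclear phosphatases, which act on several MAP kinases, were not higher in sum (105 and 88 copies, 1.16-fold lower, 0.869 to 1.56). Among them, Dusp1, an immediate early gene of stress and growth factor signaling, had 82 and 74 copies, Dusp2 had 17 and 7, and Dusp4 had 6 and 7. The phosphatases directed at p38 and JNK were 1.51-fold lower in sum (99 and 64 copies, 1.09 to 2.1). Dusp16 had 80 and 46 of these copies, 1.7-fold lower (1.17 to 2.5), and without it the sum was 19 and 18. Dusp10 had 16 and 8, and Dusp8 had 3 and 10. Dusp6 made up 11.2% of the copies of the 9 MAP kinase phosphatases in Dox+ (8.52 to 14.5) and 39.2% in Dox- (35.2 to 43.4).

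The atypical phosphatases, small enzymes that lack the kinase-binding domain of the classical ones, were nearly level in sum, with 1205 and 1105 copies (1.06-fold lower, 0.98 to 1.16). Dusp14 was the exception among those with enough copies: it had 149 and 75, 1.94-fold lower (1.46 to 2.6). It lies on chromosome 11 at 83861543 to 83882763 (minus strand) of NCBIM37. Dusp3, which can act on ERK and JNK, had 146 and 102 copies, 1.4-fold lower (1.08 to 1.82), and Dusp12 had 143 and 106, 1.32-fold lower (1.02 to 1.71). Dusp11, which acts on RNA and not on kinases, had 431 and 469 copies, 1.11-fold higher (0.976 to 1.27). Dusp26 had 28 and 5 copies, 5.47-fold lower (2.08 to 18.1). Of the others, Dusp19 had 71 and 103 copies, 1.49-fold higher (1.09 to 2.04), Dusp22 had 90 and 102, Dusp18 had 60 and 70, Dusp23 had 69 and 51, and Dusp28 had 18 and 20. These differed by less than 1.5-fold, and Dusp13 had 0 and 2 copies. Summed over all 20 Dusp genes, copies were 1635 and 1653, nearly level.

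**Figure D3:**
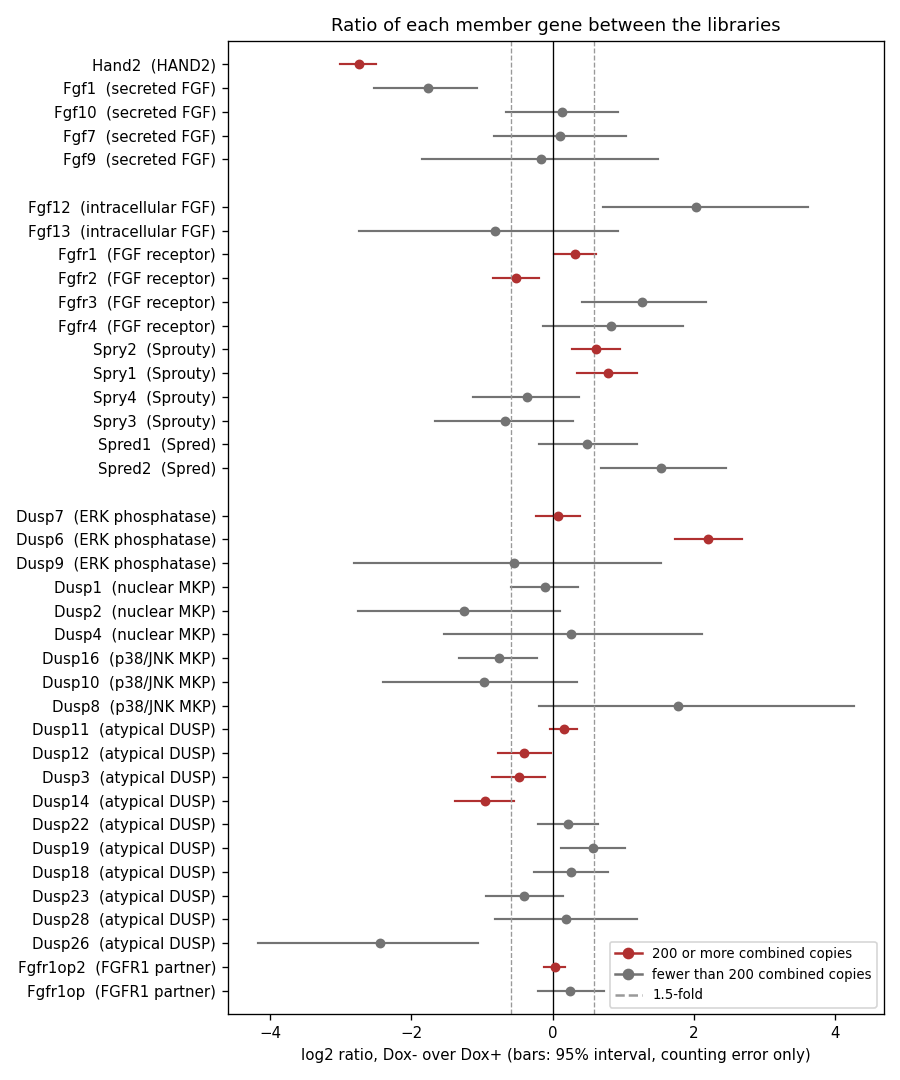
Log2 ratio of Dox- over Dox+ for 38 member genes, with bars for the 95% interval of counting error, in red for genes with at least 200 combined copies and in gray below that, and with dashed lines at 1.5-fold (Fgf16 and Spred3, with 0 or 2 copies in a library, are not drawn). Hand2 at -2.75 and Dusp6 at 2.20 have intervals far from 0, while most gray genes have bars that cross it.

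Among all genes compared, Hand2 and Dusp6 lay at the edge of the cloud for their abundance, and Spry1, Spry2 and Dusp14 lay within its outer part. The log2 ratios were 0.78 for Spry1, 0.62 for Spry2 and -0.96 for Dusp14.

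**Figure D4:**
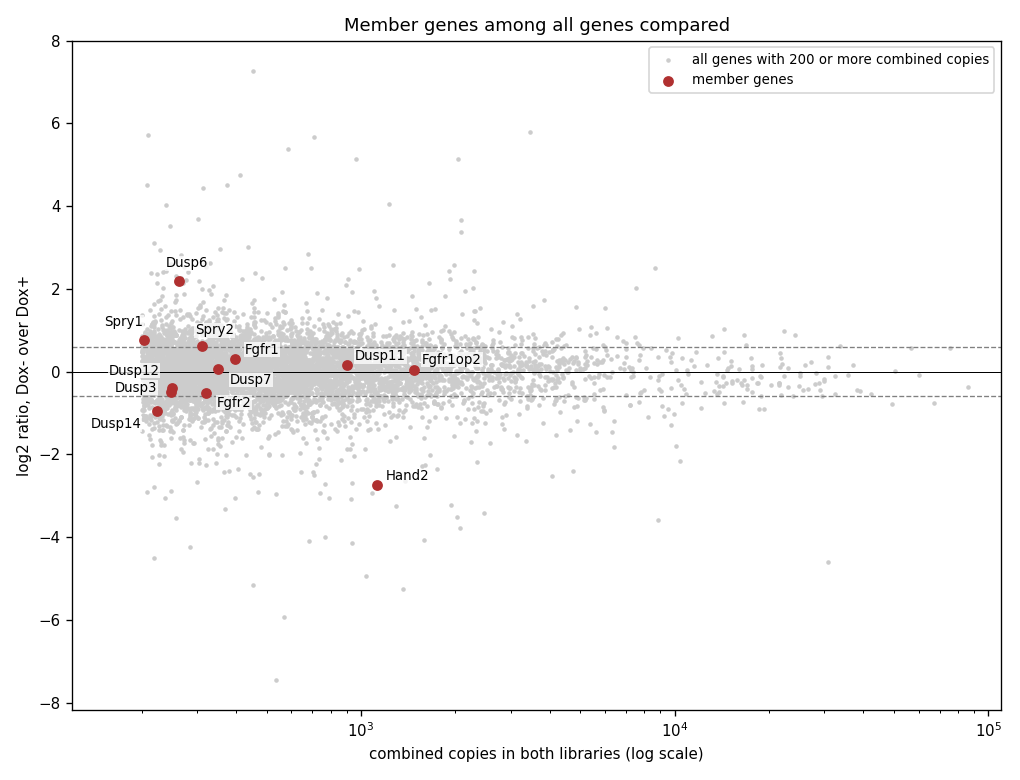
Log2 ratio of Dox- over Dox+ against combined copies (log axis) for all 6547 genes with at least 200 copies, in gray, and the 12 member genes among them, in red, with dashed lines at 1.5-fold. Hand2 lies at -2.75 and Dusp6 at 2.20, and the other 10 member genes lie between -0.96 and 0.78.

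The rest of the pathway was followed in lists of genes that are not members. Of 19 cofactors and modulators of FGF signaling in the table, 10 had enough copies, and 2 were higher and 2 lower, with a median log2 ratio of -0.11. Over all genes with enough copies, 15.2% were higher and 14.7% lower. Of the 9 less abundant ones, 4 were higher and 2 lower by the interval rule, against 17.5% and 17.1% of all such genes. Flrt2, a membrane protein that binds FGF receptors, had 77 copies in Dox+ and 170 in Dox-, 2.26-fold higher (1.72 to 3). Fgfrl1, a receptor without a kinase domain, had 81 and 164, 2.07-fold higher (1.58 to 2.74). Ext1, which builds the heparan sulfate chain, had 186 and 113 copies, 1.61-fold lower (1.27 to 2.05). Sulf2, which removes sulfate from that chain outside the cell, had 702 and 434, 1.58-fold lower (1.4 to 1.78). Other heparan sulfate genes of the list went either way. Gpc1 was 1.4-fold lower (1.24 to 1.58), Sdc4 1.3-fold lower (1.1 to 1.54) and Sdc1 1.42-fold higher (1.32 to 1.54). The less abundant Sdc2 was 1.72-fold higher (1.23 to 2.41).

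Of 28 genes of the ERK cascade, 17 had enough copies, of which 2 were higher and none lower, and the median log2 ratio was 0.40. Over all genes 14.7% were lower, and of the less abundant ones 17.5% were higher and 17.1% lower by the interval rule. The 2 of 17 stand against 15.2% higher over all genes. They were Nf1, the RAS inhibitor neurofibromin, with 82 and 133 copies (1.66-fold, 1.25 to 2.22), and Rps6ka1, an ERK-activated kinase, with 145 and 229 (1.62-fold, 1.31 to 2.01). Of 11 less abundant genes of the cascade, 4 were higher and 2 lower. The higher ones were Sos1, with 64 and 115 copies (1.84-fold, 1.34 to 2.54), and Crkl, with 14 and 39 (2.85-fold, 1.52 to 5.69). With them were Ksr1, with 5 and 15 (3.07-fold, 1.06 to 10.8), and Rps6ka3, with 8 and 19 (2.43-fold, 1.02 to 6.42). The lower ones were the adaptors Frs2, with 45 and 20 copies (2.2-fold, 1.27 to 3.93), and Gab1, with 104 and 54 (1.88-fold, 1.34 to 2.66). In the p38, JNK and ERK5 branch, 3 of the 7 genes with enough copies were higher and none lower, with a median of 0.19. Mapk13, a p38 kinase, had 104 and 205 copies (2.02-fold, 1.59 to 2.58), Map2k4, which activates JNK, had 196 and 384 (2.01-fold, 1.69 to 2.4), and Mapkapk2, a p38 target kinase, had 712 and 1234 (1.78-fold, 1.62 to 1.95). Of its 8 less abundant genes none was higher and 3 were lower. These were Mapk11, with 35 and 7 copies (4.88-fold, 2.14 to 13), Map3k5, with 79 and 27 (2.86-fold, 1.82 to 4.6), and Map2k6, with 96 and 46 (2.04-fold, 1.42 to 2.96). With them the median turned to -0.05 at a minimum of 100 copies and -0.16 without a minimum. At a minimum of 500 copies, which left few genes, the median was 0.83.

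Other transcripts that ERK is known to induce did not move one way. Of 12 with enough copies, 3 were higher and 3 lower, against 15.2% and 14.7% over all genes. The median log2 ratio was -0.15, which turned to 0.09 at a minimum of 100 copies and 0.17 without a minimum. Etv5, an ETS factor downstream of FGF, had 126 and 208 copies, 1.69-fold higher (1.35 to 2.13), Junb had 121 and 224, 1.9-fold higher (1.51 to 2.39), and Spsb1 had 63 and 137, 2.23-fold higher (1.64 to 3.05). Lower were Errfi1, an inhibitor of EGF receptors, with 859 and 391 copies (2.14-fold, 1.9 to 2.42), Klf10 with 328 and 191 (1.68-fold, 1.4 to 2.01), and Zfp36, which destabilizes mRNAs, with 215 and 126 (1.67-fold, 1.33 to 2.09). Among 7 less abundant genes of this list, 5 were higher and none lower, against 17.5% and 17.1% of all such genes. Fos, part of AP-1, had 25 and 116 copies, 4.75-fold higher (3.06 to 7.64), Ier3 had 53 and 135, 2.61-fold higher (1.89 to 3.66), and Etv4, a relative of Etv5, had 3 and 20, 6.83-fold higher (2.03 to 35.9).

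**Figure D5:**
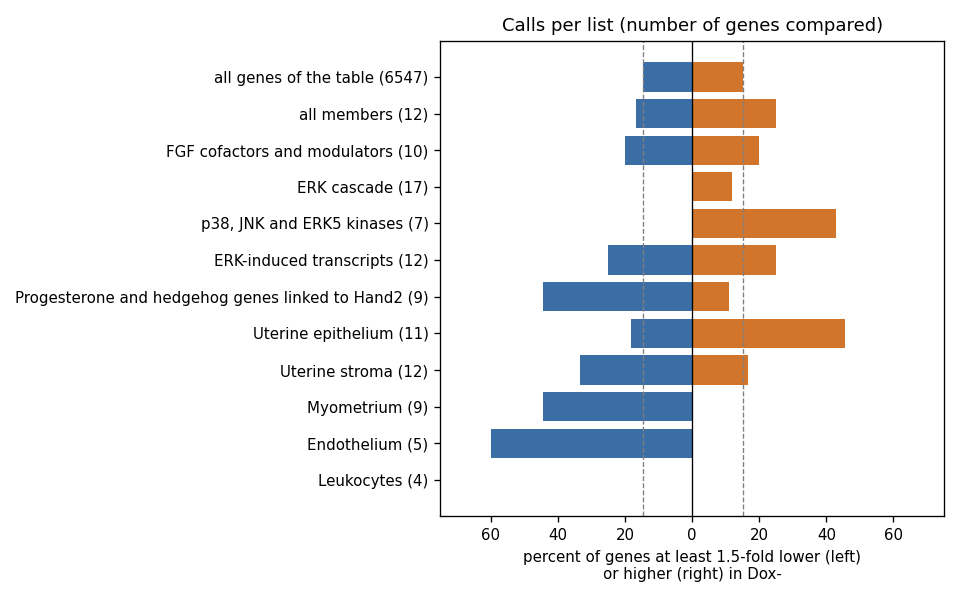
Percent of the genes with at least 200 combined copies that were at least 1.5-fold lower (left, blue) or higher (right, orange) in Dox-, for all genes, the members, the pathway lists and the cell type marker lists, with the number of genes in brackets and dashed lines at the shares over all genes (14.7% and 15.2%). At this minimum the ERK cascade and the p38, JNK and ERK5 list have no lower gene, though 2 and 3 of their less abundant genes were lower, and the myometrial and endothelial markers have no higher gene.

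The differences depend on the spread assumed between pools of mice. With an assumed coefficient of variation of 0.2 in an edgeR exact test, Hand2 and Dusp6 still counted at an FDR below 0.05, and Spry1, Spry2 and Dusp14 did not, and with 0.4 none did. At 0.4 this test passes few genes of any kind: 16 higher and 17 lower of the 6547 in the table did. For 7 members another protein-coding gene overlaps the annotated span (Fgf1, Fgf7, Fgfr2, Fgfr1op2, Dusp10, Dusp13 and Dusp19), and a share of such tags in their copies was not tested. The span annotated for Fgfr2, 137305965 to 140315033 on chromosome 7, overlaps 32 coding genes, against 1 for each of the others. Whether that span is right was not checked.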

How the data were processed

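Total RNA of 3 pooled uteri per condition at gestation day 2.5 was profiled by digital gene expression, which counts short sequence tags per gene, in 1 Dox+ and 1 Dox- library. The counts deposited are copies of unambiguous clean tags per gene without normalization. The authors had removed adaptor-only tags, low quality tags and tags seen once, and aligned the rest to mouse mRNA reference tags of build mm9. CASAVA is named in the submitters' processing notes, and the aligner and the restriction enzyme are not given in the sources used here. The authors scaled the copies to 1000000 clean tags (TPM), did not correct for length, and wrote 0.01 where a gene had no tag. The deposited ratio and log2 columns, and the P-value with its FDR, hold the authors' own comparison and were not used here. The authors searched sense and antisense tags, and whether a gene's copies hold both strands is not given in the sources used here. The labels mention mRNA fragmentation, while the paper describes tag profiling. The copies were read as tag counts, and this was not resolved.

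Library sizes recovered from counts and TPM were 5985925 (Dox+) and 5844314 (Dox-) clean tags, of which the table held 74.1% and 72.2%. Tags of 14050 and 13948 genes were found, and the floor of 3 copies was 0.501 and 0.513 TPM. Copies per clean tag were compared, with exact Clopper-Pearson 95% intervals of each split and Wilson intervals for shares. Genes with at least 200 combined copies and a fold change of at least 1.5 were counted, and less abundant genes by the interval rule, chosen after seeing the data. Every member with more than 3 copies in a library was named, with the largest differences of each pathway list. Under-200 genes of those lists named in the text were chosen after their values were seen. Members and lists were chosen with earlier results of these data known.

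Alternatives were other copy minimums, folds and scalings (TMM and median-ratio), the Audic-Claverie test and edgeR's exact test with assumed variation. Positions came from GENCODE vM1 on NCBIM37 (40 of 43 members matched by symbol) and start regions from RefSeq (33 matched). The methods were tested on simulated data with counting error only. The spread between mice was not simulated, so that test says nothing about it. Python 3.11.15, numpy 2.4.6, scipy 1.17.1, pandas 2.3.3, matplotlib 3.10.9, R 4.3.3, edgeR 4.0.16 and DESeq2 1.42.0 (size factors only) were used.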

Additional observations from a re-analysis of the deposited data

How the results depend on the processing

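With 1 library per condition the difference between pools of mice is unmeasured, and depth limits the 29 members with fewer than 100 copies in each library to large differences. No paired analysis was possible because each condition has 1 library and the labels give no replicate numbers, and no library could be left out. The member counts and the 5 calls were the same under TMM, median-ratio and table-sum scaling, which moved the median log2 ratio of all genes by -0.029, -0.035 and 0.038, and under the Audic-Claverie test. No member with at least 200 copies crossed 1.5-fold under these scalings, but other genes near that limit did. Spry2, 1.54-fold higher, was brought down to about the limit itself by median-ratio scaling, so its unchanged call says little. Over all genes, the 994 higher became 911, 906 and 1099 and the 961 lower became 1029, 1042 and 895, in the same order. The median log2 ratio of the members, 0.05, lay between -0.16 (without Fgfr1op, Fgfr1op2 and Dusp11, added after seeing the data) and 0.09 (table-sum scaling), and their mean was -0.08, so its sign is not fixed. An absolute log2 ratio above 0.5 in place of the fold added Fgfr2 as lower.

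The 3 higher and 2 lower members became 0 and 1 at a minimum of 500 copies, 9 and 10 without a minimum, 1 and 1 at 2-fold, 1 and 1 with edgeR at a coefficient of variation of 0.2, 0 and 0 at 0.4, and 6 and 5 for all members by the interval rule, which was added after seeing the data. At 0.4 no member passed an FDR below 0.05, where the Audic-Claverie test passed all 5. Over all genes, 994 higher and 961 lower became 449 and 456 at 500 copies, 2869 and 2830 without a minimum, 302 and 368 at 2-fold, 147 and 174 at 0.2, 16 and 17 at 0.4, and 2253 and 2190 by the interval rule. For the pathway lists together, 11 higher became 18 at 100 copies, 3 at 500, 24 without a minimum, 5 at 2-fold, and 0 at both 0.2 and 0.4, and 9 lower became 14 at 100 copies, 23 without a minimum, 5 at 2-fold, 4 at 0.2 and 1 at 0.4. For the marker lists together, 7 higher became 13 without a minimum, 4 at 0.2 and 0 at 0.4, and 13 lower became 6 at 2-fold, 4 at 0.2 and 0 at 0.4. The copy minimums change which genes are compared, while the 2-fold rule and edgeR set a stricter bar for the same genes. On the log2 scale, the sum of the secreted ligands turned from -0.51 to 0.33 without Fgf1 and that of the stroma markers from 0.25 to -0.26 without Col1a1 and Col1a2, both added after seeing the data. Fold changes of the named members stayed inside their intervals under the 3 scalings and a pseudocount of 1. Each scaling shifts all genes alike, by -0.029, -0.035 or 0.038 on the log2 scale, so for the scalings this could hardly come out otherwise.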
